A study of Mus musculus with 69 samples.

Results

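The suppressors of cytokine signaling (SOCS) form a family of 8 inhibitors, Cish and Socs1 to Socs7. They were taken by symbol from the table of read counts, without regard to their values, and all 8 were found among its 24411 genes and passed the filter on low counts, which left 21175 genes tested. The counts come from 69 RNA-sequencing libraries of mouse kidney, 48 of pulled-down nascent RNA and, from control mice, 21 of total RNA. All mice carried Uprt, a Toxoplasma gondii enzyme that lets cells build thio-uracil into new RNA, in 1 allele of Rosa26 behind a stop cassette that Cre removes, and all, controls included, received 430 mg/kg of 4-thiouracil (4-TU) 4 hours before dissection. The 2 genotypes are given in the labels as Hoxb7Cre;UPRTf/+ and Atp6b1v1Cre;UPRTf/+, and the Uprt allele had been crossed to C57BL/6J for 5 generations before it met the Cre lines. The second is written Atp6v1b1Cre here, after its gene. Hoxb7Cre acts in the whole collecting duct. Atp6v1b1Cre acts in intercalated and double-positive cells and also marks rare interstitial cells in some animals, so that the 2 domains overlap. The pulldowns of mice of 5.5 months came from controls, from mice clamped for 10 minutes 24 hours before the label (iAKI, ischemia) and from mice kept without food and water for 72 hours (vAKI, volume depletion). In Hoxb7Cre they number 4 male and 4 female controls, 4 male and 3 female iAKI, and 3 male and 4 female vAKI. In Atp6v1b1Cre they number 4 male and 4 female controls, 3 male and 3 female iAKI, and 4 male and 3 female vAKI. Mice of 3 months gave 2 further female Hoxb7Cre and 3 further male Atp6v1b1Cre control pulldowns. Total RNA came from 11 male controls, 3 of them of 3 months, and 10 female controls, 2 of them of 3 months.

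Cytokine and hormone receptors without kinase activity of their own signal through Janus kinases (JAKs), which phosphorylate STAT transcription factors. STATs switch on SOCS genes, and SOCS proteins bind the receptor or kinase through an SH2 domain and recruit an Elongin-Cullin ubiquitin ligase through the SOCS box, which closes a feedback loop. Cish and Socs2 are classic targets of STAT5 downstream of growth hormone and prolactin, Socs3 answers to STAT3 and IL-6 family cytokines, and Socs1 to interferons. Socs4 and Socs5 are linked to the epidermal growth factor receptor, and Socs6 and Socs7 to insulin receptor signaling.

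In GRCm38 the genes lie apart, at chr9:107296026-107302784 (Cish, plus strand), chr16:10782240-10785536 (Socs1, minus), chr10:95385362-95417180 (Socs2, minus), chr11:117966079-117970047 (Socs3, minus), chr14:47276931-47296102 (Socs4, plus), chr17:87107679-87137839 (Socs5, plus) and chr11:97362551-97398542 (Socs7, plus), with Socs6 on a further chromosome. RefSeq promoters of GRCm38.p6 matched 4 of the 8 members by symbol, Cish, Socs1, Socs3 and Socs4. They were searched on both strands for TTCNNNGAA, a palindrome of the kind STAT dimers bind, and those of Cish and Socs3, which hold it, are shown because the results turn on these 2 genes. Each runs from 250 bases before the transcription start to 20 bases after it, 5′ to 3′ on the strand of the gene, with the palindromes in capitals. The Cish stretch is chr9:107296409-107296678 on the plus strand and the Socs3 stretch is chr11:117969347-117969616 on the minus strand. Both lie inside the gene spans given above, which begin further upstream. Base positions are therefore counted from the RefSeq start and would differ from another annotated start.
Cish: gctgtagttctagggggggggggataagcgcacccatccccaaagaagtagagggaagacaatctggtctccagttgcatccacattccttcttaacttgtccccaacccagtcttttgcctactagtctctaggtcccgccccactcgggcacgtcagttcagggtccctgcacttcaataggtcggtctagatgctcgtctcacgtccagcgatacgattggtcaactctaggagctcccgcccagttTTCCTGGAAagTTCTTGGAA
Socs3: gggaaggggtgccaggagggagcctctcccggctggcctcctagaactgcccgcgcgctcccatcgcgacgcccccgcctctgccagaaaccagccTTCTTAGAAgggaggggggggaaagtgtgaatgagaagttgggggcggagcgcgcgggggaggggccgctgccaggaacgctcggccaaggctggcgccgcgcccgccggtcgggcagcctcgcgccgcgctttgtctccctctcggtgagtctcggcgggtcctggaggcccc
The Cish promoter holds TTCCTGGAA from base 1 of the transcript and TTCTTGGAA from base 12, and the Socs3 promoter holds TTCTTAGAA from base -154. No TTCNNNGAA lay in the 300 bases searched of Socs1 or Socs4. Of 32851 RefSeq promoters of 300 bases, 8.3% held the palindrome and 0.457% held 2 or more copies. The same palindrome with 4 bases between its arms stood in 6.95% of promoters and in none of the 4 members.

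The libraries held 12618062 to 30305464 counts, with a median of 20868430. All 69 matched the labelled sex. Levels are given as CPM, counts scaled to a common library size after TMM normalization. The 6 principal cell markers summed to 1104 to 3439 CPM in the 10 Hoxb7Cre control pulldowns, 535 to 1009 in the 11 of Atp6v1b1Cre and 668 to 1175 in total RNA, and the 7 intercalated cell markers to 543 to 1207, 660 to 1597 and 413 to 711 CPM. The markers of both domains were therefore detected. The 6 proximal tubule markers summed to 1574 to 4184, 1296 to 4135 and 7699 to 15468 CPM in the same order. The 2 thick ascending limb markers summed to 939 to 2321, 732 to 2053 and 5583 to 10918 CPM. The pulldowns thus also held RNA of other segments, so a SOCS level there is not that of the Cre domain alone. Markers of leukocytes, 18 of 20 listed, summed to 48.4 to 105.7, 98.6 to 188.4 and 128.9 to 254.1 CPM in the same order. Their median log2 fold change over total RNA was -1.16 in Hoxb7Cre and 0.28 in Atp6v1b1Cre, beside 0.11 over all genes. By that median they were depleted in the Hoxb7Cre pulldowns but not in those of Atp6v1b1Cre. A few control libraries stood apart. Foxi1, the master transcription factor of intercalated cells, was at 52.7 and 48.2 CPM in the female Hoxb7Cre control replicates 6 and 9 and at 103.1 to 179 CPM in the other controls of that age, and at 21.2 and 20.0 CPM in the female total RNA replicates 12 and 17. The other total RNA libraries had 22.9 to 97 CPM, the lowest in male replicate 20, whose Socs2 (9.46 CPM) lay inside the male range. Results that rest on these 4 libraries are given with and without them. All 4 were also the highest of their sets in Socs2. Leaving them out therefore lowers the female Socs2 level by construction and is no separate test of Socs2. The library numbers in the labels fall into 3 runs, which the labels do not call batches. All Hoxb7Cre injury libraries lie in the first run, as do male control replicates 2 and 3, while male control replicates 4 and 5 lie in the second. Of the female Hoxb7Cre controls of 5.5 months only replicate 1 lies in the first run, with replicate 6 in the second and 9 and 10 in the third. The Atp6v1b1Cre injury groups and male controls of that age span the first and second runs, and the female controls all 3.

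In control kidneys the family ranged from abundant to nearly silent. Exon length here merges the exons of all annotated transcripts of a gene, 6419 bases for Cish and 9531 for Socs2. It can exceed the length of the transcripts present, so the order below depends on the annotation. Per kilobase of exon, Socs7 stood highest. It was at 20.0 ± 2.29 CPM per kb (SD, n = 10) in Hoxb7Cre pulldowns, 19.7 ± 2.9 (n = 11) in Atp6v1b1Cre pulldowns and 11.2 ± 1.45 (n = 21) in total RNA. Socs5 followed at 11.1 ± 1.27, 11 ± 0.655 and 6.14 ± 0.972 CPM per kb. Socs4, Cish, Socs2 and Socs6 came next. Socs4 stood at 7.12 ± 1.65, 6.16 ± 1.16 and 2.65 ± 0.506 CPM per kb, and Socs6 at 4.32 ± 0.653, 4.34 ± 0.516 and 3.07 ± 0.392. Cish and Socs2 varied more between mice than any of these, at 6.86 ± 6.52 and 7.56 ± 11.4 CPM per kb in Hoxb7Cre, 4.2 ± 1.9 and 3.05 ± 2.82 in Atp6v1b1Cre and 5.2 ± 4.18 and 3.39 ± 4.62 in total RNA. Their order relative to Socs4 and Socs6 is within that spread. Socs3 lay at 1.8 ± 1.85, 1.49 ± 0.89 and 1.95 ± 0.778, and Socs1 was lowest, at 0.264 ± 0.282, 0.197 ± 0.144 and 0.259 ± 0.11. The steps from Socs7 to Socs5 and from Socs3 to Socs1 are the clearest in the plot of control levels.

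**Figure D1:**
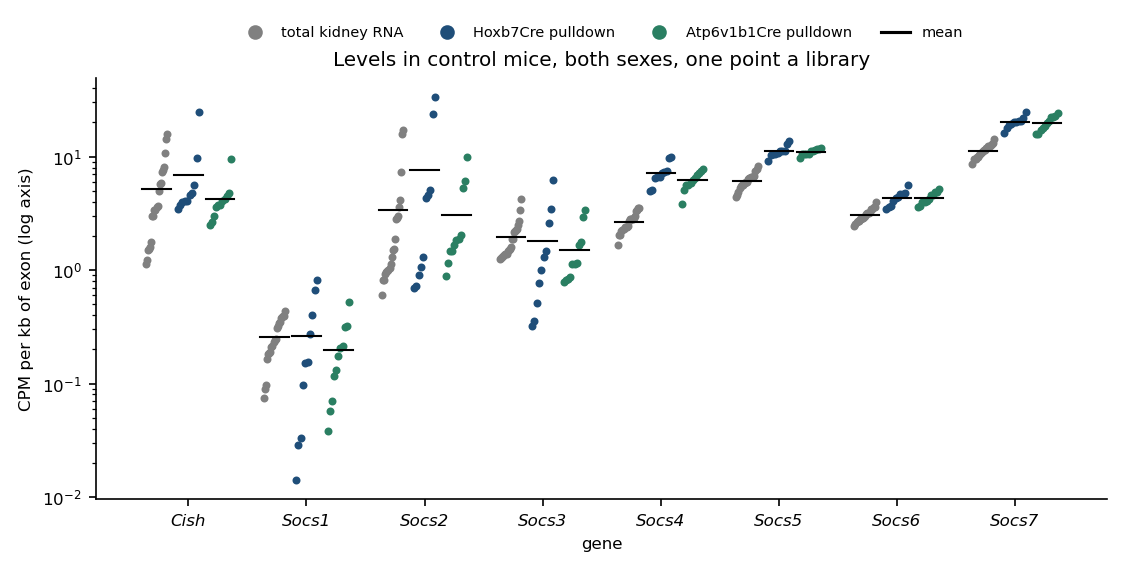
Each point is 1 control library, in total kidney RNA, Hoxb7Cre pulldowns and Atp6v1b1Cre pulldowns, and the y axis gives CPM per kb of exon on a log scale for each SOCS gene on the x axis. Black lines are means. Socs7 and Socs5 are highest in every fraction, Cish and Socs2 scatter most, and Socs1 is lowest.

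The 4 members outside the classic feedback set were richer in the nascent RNA of both collecting duct domains than in total kidney RNA. Socs4 lay between 34.2 and 68.6 CPM (median 47.1) in Hoxb7Cre control pulldowns, 26.2 and 53.6 (median 43) in those of Atp6v1b1Cre, and 11.5 and 24.4 (median 18.5) in total RNA, so that neither pulldown group overlapped with total RNA. Its log2 fold change (log2FC) over total RNA was 1.48 ± 0.10 (SE, adjusted p = 3.46e-17) in Hoxb7Cre and 1.24 (adjusted p = 6.93e-15) in Atp6v1b1Cre. Pulldown and total RNA may share mice, and the fit did not pair them. A gene with an adjusted p under 0.05 is said to pass, and one that also has a log2FC of at least 1 in size is called a differentially expressed gene (DEG). Socs4 was the only DEG among the 8 members in both comparisons, against 32.5% and 27.7% of all genes tested. Socs7, Socs5 and Socs6 passed in the same direction, with log2FC of 0.92, 0.89 and 0.53 in Hoxb7Cre and 0.83, 0.89 and 0.55 in Atp6v1b1Cre. That makes 4 of 8 members in each, where 66.6% and 63.8% of genes passed and the median of all genes was 0.11, so the share among the members did not exceed the background. Between the 2 pulldowns, edgeR called no member, at a background of 4.11%, none had an unadjusted p under 0.05, and DESeq2 called 0 too.

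Injury raised several of the classic feedback members, with more of them called after volume depletion than after ischemia. In males, volume depletion called 3 of 8 members in Hoxb7Cre pulldowns (Socs1, Socs2 and Socs3) and 3 of 8 in Atp6v1b1Cre pulldowns (Cish, Socs2 and Socs3), all higher. Among all genes, 16.4% were DEGs in Hoxb7Cre, with 9.61% higher, and 5.15% in Atp6v1b1Cre, with 3.45% higher. By adjusted p alone, 5 and 4 members passed, where 35.5% and 14.6% of genes did. Ischemia called 1 of 8 members in Hoxb7Cre, Socs3, at a background of 2.3%. In Atp6v1b1Cre, ischemia called 0 of 8 by edgeR's quasi-likelihood test, at a background of 2.82%, and 0 by DESeq2. There 2 members had an unadjusted p under 0.05 and 1, Socs7, passed and was lower, where 8.51% of genes passed. The median log2FC of the members was 0.20 and 0.14 after ischemia and 0.51 and 0.88 after volume depletion, in Hoxb7Cre and Atp6v1b1Cre, beside 0.00 over all genes. The CPM of treated and control males did not overlap for 2 members after ischemia in Hoxb7Cre (15.9% of all genes), 2 in Atp6v1b1Cre (20.6%), 4 after volume depletion in Hoxb7Cre (39.5%) and 3 in Atp6v1b1Cre (14.5%). Both treatments share their controls.

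**Figure D2:**
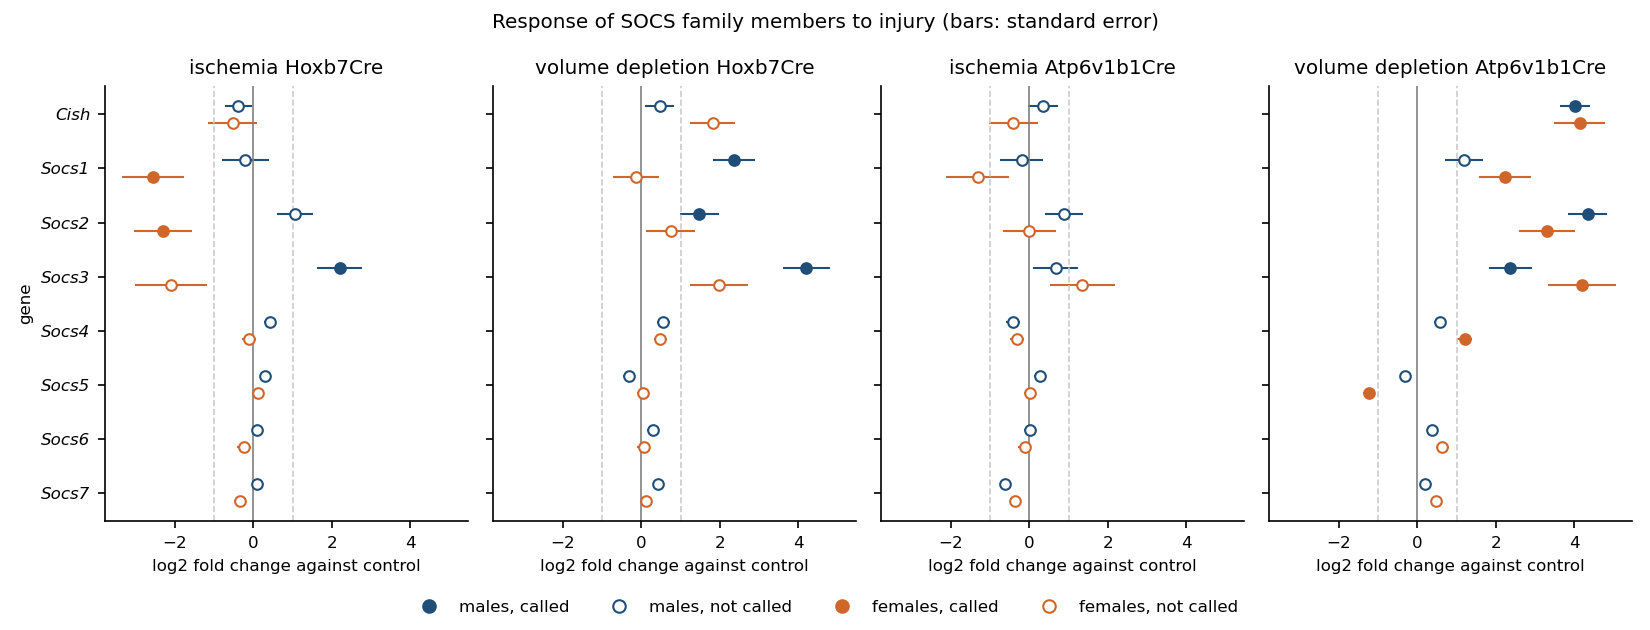
Log2 fold change against control of the same driver and sex (x axis) for each SOCS gene (y axis), with bars of 1 SE, in 4 panels by driver and treatment. Males are blue, females orange, filled points are DEGs and dashed lines mark a log2 fold change of 1 in size. Cish and Socs2 lie far to the right after volume depletion in Atp6v1b1Cre in both sexes, and Socs3 is a filled point in 3 of the 4 male panels.

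Cish, the founding member of the family, rose after volume depletion in Atp6v1b1Cre pulldowns. Its level was 24.2, 16.9, 19.4 and 22.9 CPM in the 4 male controls and 187, 89.2, 425 and 643 CPM in vAKI replicates 1, 2, 6 and 7. Every depleted male lay above every control, and the 2 libraries of the second run lay above the 2 of the first. The log2FC was 4.02 ± 0.39 (16.2-fold, adjusted p = 1.80e-06). Within the first run of library numbers it was 2.77 and within the second 4.66, both DEGs, and leaving out any 1 library gave 3.49 to 4.34. In the 3 iAKI males of that driver Cish was at 30.6, 25.8 and 23.1 CPM, 2 of them above the controls.

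In Hoxb7Cre, Cish did not pass after either treatment. Control males had 26, 36.1, 24.2 and 22.1 CPM, iAKI males 19.8, 19.9, 24.7 and 17.9, and vAKI males 43.6, 30.4 and 37.7, so both treated groups overlapped with the controls. The log2FC was 0.47 ± 0.37 (adjusted p = 0.368) after volume depletion and -0.38 ± 0.35 (adjusted p = 0.575) after ischemia. The difference between the drivers in the response to volume depletion was itself tested. It was 3.56 ± 0.53 for Cish on the log2 scale (adjusted p = 8.35e-04), and 2 of 8 members were DEGs in that comparison, where 2.93% of genes were.

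Socs2, the feedback inhibitor of the growth hormone receptor, was the other member called in the driver difference after volume depletion. In Atp6v1b1Cre males it stood at 8.37, 11.1, 16.0 and 19.3 CPM in controls and at 285, 38.8, 298 and 481 CPM in vAKI replicates 1, 2, 6 and 7. Replicate 2 was the lowest of the depleted mice, as it was for Cish, and still lay above every control. The log2FC was 4.34 ± 0.50 (20.3-fold, adjusted p = 1.70e-05), 4.08 within the first run and 4.47 within the second.

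In Hoxb7Cre males Socs2 rose less. Controls had 6.91, 6.59, 12.3 and 8.67 CPM and vAKI males 25.7, 22.9 and 23.3, without overlap. The log2FC was 1.48 ± 0.49 (2.79-fold, adjusted p = 0.0204), and 1.84 within the first run. The call was lost when vAKI replicate 4 (1.43, adjusted p = 0.0523), control replicate 2 (1.39, 0.0549) or control replicate 3 (1.37, 0.0578) was left out. The difference between drivers was 2.86 ± 0.68 (adjusted p = 0.0169), and its adjusted p was 0.0506 without vAKI Hoxb7Cre replicate 6 and 0.0549 without replicate 7. After ischemia Socs2 was at 13.4, 26.7, 18.9 and 13.0 CPM in Hoxb7Cre, above all controls, with a log2FC of 1.07 ± 0.46 that did not pass (adjusted p = 0.179). In Atp6v1b1Cre it was at 24.4, 14.4 and 37 CPM, overlapping with the controls (log2FC 0.88, adjusted p = 0.272). With the run of library numbers as a covariate, Socs2 was a DEG after ischemia in Hoxb7Cre (1.59, adjusted p = 0.00892), as it was without vAKI Atp6v1b1Cre replicate 2 (1.07, adjusted p = 0.0362).

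**Figure D3:**
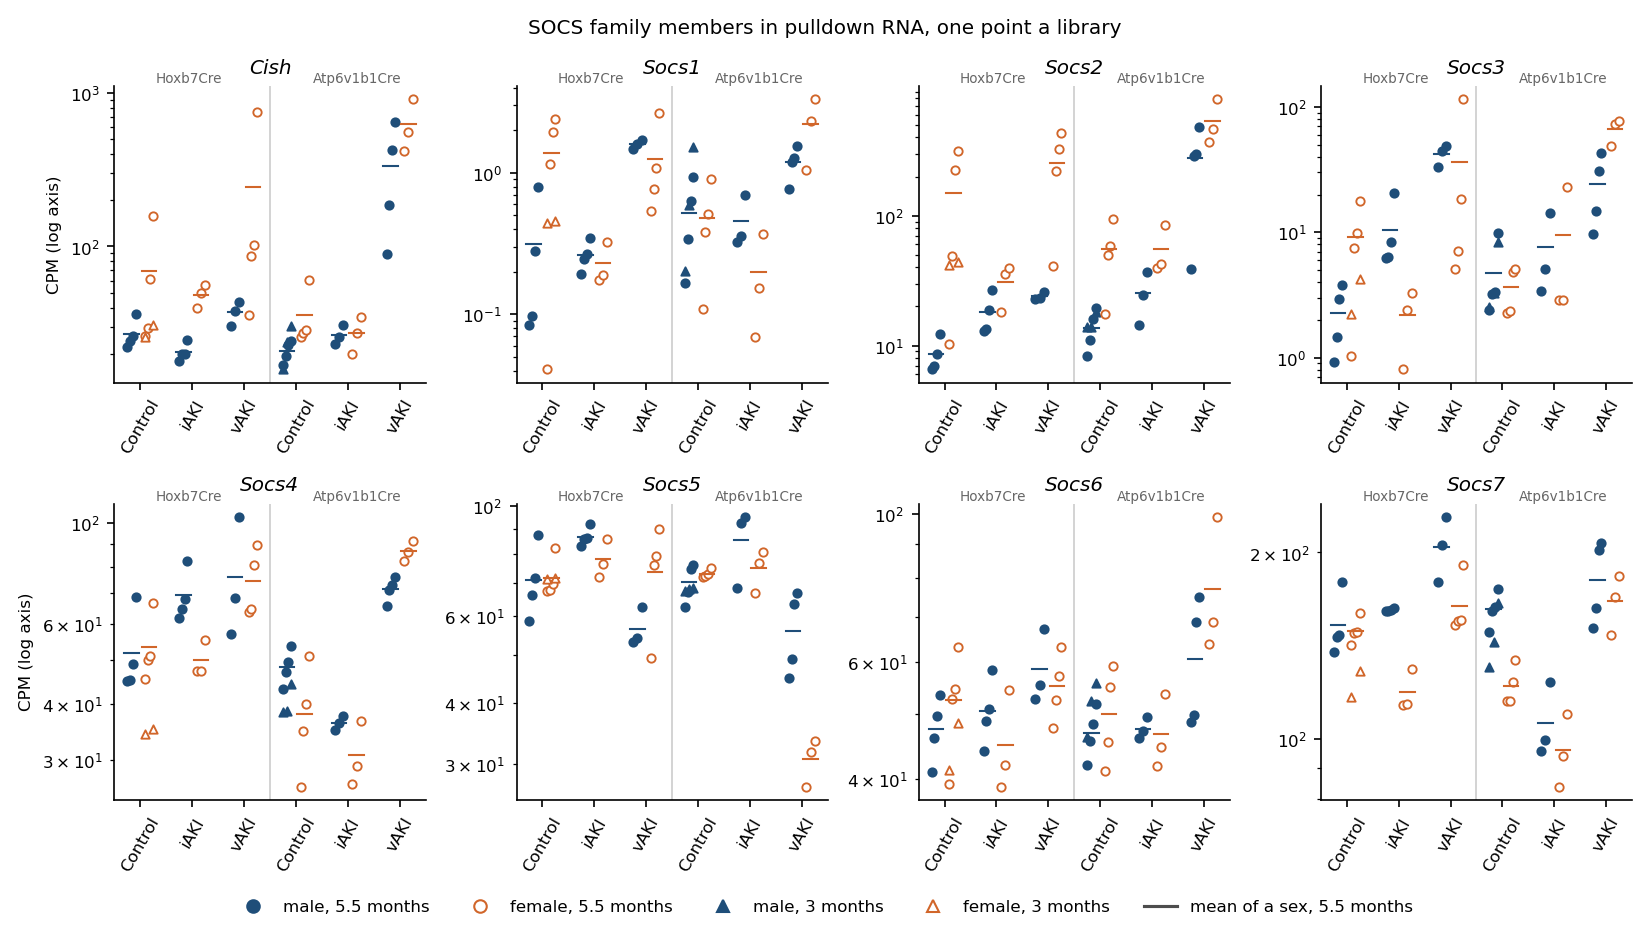
Each of 8 panels shows 1 SOCS gene, with CPM on a log y axis and control, iAKI and vAKI of the 2 drivers on the x axis. Each point is 1 pulldown library (filled blue male, open orange female, triangles 3 months of age) and lines are means of a sex at 5.5 months. In Atp6v1b1Cre the vAKI points of Cish run from 89.2 to 907 CPM and those of Socs2 from 38.8 to 783, while those of Socs6 and Socs7 spread less.

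Across the 48 pulldowns Cish and Socs2 moved together, with a Pearson r of log2 CPM of 0.86. The points share library, depth and treatment, and the value is a description. The vAKI pulldowns of Atp6v1b1Cre were high in both except male replicate 2 (89.2 and 38.8 CPM), and in Hoxb7Cre so were female vAKI replicate 5 (754 and 429 CPM) and female control replicate 6 (159 and 317 CPM). Socs2 also ranked 2 among 13930 genes by likeness to Cish, after A330035P11Rik (0.89), and Cish was among the 5 genes most like Socs2, with Gbp7 (0.92), Serpina1f (0.90) and Gclc (0.89). Cish correlated with Socs3 at 0.68 and with Socs5 at -0.75.

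**Figure D4:**
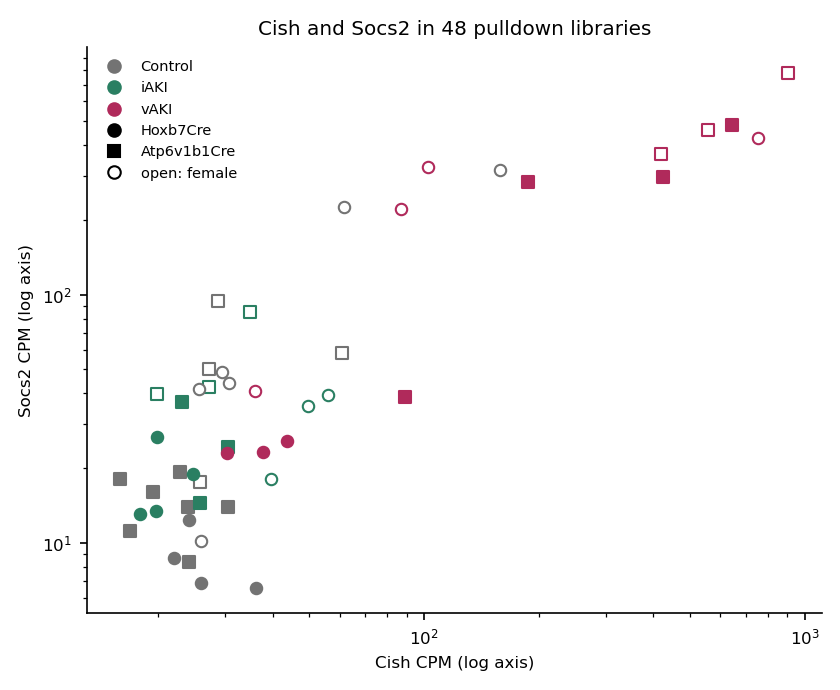
Cish CPM (x axis, log scale) against Socs2 CPM (y axis, log scale) in the 48 pulldown libraries. Colour gives the treatment, circles are Hoxb7Cre, squares Atp6v1b1Cre, and open symbols females. The vAKI squares lie at the upper right except male replicate 2 in the middle of the plot (89.2 and 38.8 CPM), and female Hoxb7Cre vAKI replicate 5 (754 and 429 CPM) and control replicate 6 (159 and 317 CPM) lie high as well.

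Socs3, the brake on gp130 and the leptin receptor, rose in both domains after volume depletion and in Hoxb7Cre after ischemia. In Hoxb7Cre males it was at 1.47, 0.92, 3.8 and 2.91 CPM in controls and at 44.4, 32.9 and 48.4 CPM in vAKI. All 3 depleted mice lay far above the controls. The log2FC was 4.21 ± 0.61 (18.5-fold, adjusted p = 1.59e-05), and 5.12 within the first run. After ischemia it was at 6.23, 20.4, 6.39 and 8.33 CPM, again without overlap with the controls, with replicate 5 highest. That log2FC was 2.20 ± 0.57 (4.6-fold, adjusted p = 0.0238), and 3.12 within the first run (adjusted p = 8.91e-04). It no longer passed without iAKI replicate 5 (1.62, adjusted p = 0.115), control replicate 2 (2.03, 0.0648) or control replicate 3 (1.94, 0.0879).

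In Atp6v1b1Cre males Socs3 was at 2.39, 3.24, 3.31 and 9.81 CPM in controls and at 9.72, 14.7, 30.9 and 42.5 CPM in vAKI replicates 1, 2, 6 and 7. The groups touched, since control replicate 11 lay just above vAKI replicate 1. The log2FC was 2.37 ± 0.54 (5.16-fold, adjusted p = 0.00576), with 2.15 in the first run and 2.47 in the second. After ischemia it was at 5.13, 3.38 and 14.3 CPM, overlapping with controls (log2FC 0.67, adjusted p = 0.513). The responses of the 2 drivers to volume depletion differed by -1.84 ± 0.79 for Socs3, which did not pass (adjusted p = 0.201).

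Socs1, the interferon-induced inhibitor of JAK kinases, was rare throughout. In Hoxb7Cre control males it was at 0.0843, 0.0969, 0.79 and 0.281 CPM, from 2, 2, 16 and 6 counts. It rose to 1.61, 1.7 and 1.48 CPM, from 32, 47 and 36 counts, in vAKI males. No depleted library overlapped with a control, and the log2FC was 2.36 ± 0.53 (5.14-fold, adjusted p = 0.00138). In iAKI males it stayed at 0.247, 0.344, 0.194 and 0.268 CPM, within the control range. In Atp6v1b1Cre the controls had 0.168, 0.629, 0.339 and 0.938 CPM and the vAKI males 0.775, 1.19, 1.28 and 1.56. The ranges overlapped, and the log2FC of 1.18 ± 0.48 did not pass (adjusted p = 0.103). With the run as a covariate it was 1.27 and passed (adjusted p = 0.0235), as it did without control replicate 11 (1.68, adjusted p = 0.0318).

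Socs4 and Socs5, the pair linked to the epidermal growth factor receptor, shifted by small amounts in males. After volume depletion Socs4 in Atp6v1b1Cre rose from 53.6, 49.5, 43 and 46.9 CPM in controls to 65.8, 71.2, 76 and 73.1, without overlap (log2FC 0.58 ± 0.16, adjusted p = 0.0148). In Hoxb7Cre Socs4 was at 6.10, 5.61, 5.50 and 5.49 log2 CPM in controls and at 6.69, 6.10 and 5.84 in vAKI, where 2 depleted mice lay within the control range, yet it passed (log2FC 0.56 ± 0.17, adjusted p = 0.0109). After ischemia Socs4 lay at 64.8, 61.8, 82.6 and 68.2 CPM in Hoxb7Cre (log2FC 0.43, adjusted p = 0.101) and at 37.5, 35.0 and 36.2 CPM in Atp6v1b1Cre, below all controls there (log2FC -0.42, adjusted p = 0.122). Neither passed alone, but the difference between the drivers did, at -0.86 ± 0.23 (adjusted p = 0.0249), and it was a DEG without control Hoxb7Cre replicate 2 (-1.02, adjusted p = 0.00799). Socs5 was at 87.6, 71.6, 66.1 and 58.6 CPM in Hoxb7Cre controls, 83, 85.8, 91.9 and 86.4 after ischemia and 54.0, 62.4 and 53.2 after volume depletion. It overlapped with controls in every male comparison and passed in none of the 4, with log2FC from -0.32 to 0.30.

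Socs6 and Socs7, the insulin-linked pair, had no DEG after either treatment in males. Socs7 was at 161, 175, 149 and 163 CPM in Atp6v1b1Cre control males and at 99.6, 95.6 and 124 after ischemia, below every control. This fall was the only change of a member that passed in ischemic Atp6v1b1Cre (log2FC -0.61 ± 0.13, 1.53-fold, adjusted p = 0.00756). It was -0.79 within the first run (adjusted p = 4.72e-04) and -0.33 within the second, where it did not pass (adjusted p = 0.311). In Hoxb7Cre Socs7 stood at 179, 147, 138 and 146 CPM in controls and at 161, 163, 161 and 162 after ischemia, within the control range, and the difference between drivers was -0.71 ± 0.18 (adjusted p = 0.019). Socs4 and Socs7 were thus 2 members that passed in the difference after ischemia, where 7.79% of genes passed. None of the 8 was a DEG there by edgeR or DESeq2 (background 3.49%), and 2 had an unadjusted p under 0.05. Volume depletion raised Socs7 in Hoxb7Cre to 206, 228 and 179 CPM, the lowest just above the highest control (log2FC 0.43 ± 0.13, adjusted p = 0.0135). In Atp6v1b1Cre it gave 202, 208, 162 and 151 CPM, overlapping with controls (log2FC 0.18, adjusted p = 0.363). Socs6 passed in none of these, with log2FC from 0.01 to 0.38. Its nearest approach was volume depletion in Atp6v1b1Cre, where controls had 48.4, 51.8, 45.6 and 41.9 CPM and vAKI males 49.9, 48.7, 68.7 and 75.1 (adjusted p = 0.0603).

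Set directly against volume depletion, ischemia left several feedback members lower in both domains. In Hoxb7Cre males Socs1 was lower by a log2FC of -2.56 ± 0.54 (adjusted p = 8.15e-04) and Socs3 by -2.01 ± 0.55 (adjusted p = 0.00693), 2 of 8 members where 14.7% of genes were DEGs and 8.15% were lower. Socs5 passed as higher (0.63, adjusted p = 0.00273). In Atp6v1b1Cre, 4 of 8 members were DEGs and all lower, against 11.6% of genes and 7.16% lower. They were Cish (-3.69 ± 0.43, adjusted p = 3.93e-06), Socs2 (-3.46 ± 0.54, adjusted p = 6.63e-05), Socs3 (-1.69 ± 0.58, adjusted p = 0.0317) and Socs4 (-1.01 ± 0.17, adjusted p = 1.66e-04). Socs4 passed the fold threshold narrowly and lay between -0.96 and -1.05 with any 1 library left out. It fell short of the fold threshold, with an adjusted p of at most 0.00208, without iAKI Atp6v1b1Cre replicate 4 or 5, vAKI Atp6v1b1Cre replicate 6 or 7, or Hoxb7Cre iAKI replicate 5, vAKI replicate 4 or control replicate 4. The Socs3 call was lost without iAKI Atp6v1b1Cre replicate 1 (-1.46, adjusted p = 0.132) or 4 (-1.33, 0.143), or vAKI replicate 6 (-1.56, 0.0667) or 7 (-1.27, 0.109). Socs7 passed as lower (-0.79, adjusted p = 1.58e-04) and Socs5 as higher (0.58, adjusted p = 0.00515). Socs1 missed the threshold (-1.38, adjusted p = 0.0554) and was called in 7 of the 22 fits with 1 library left out, at -1.78 to -1.36.

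Cell markers moved with some of these results. In Hoxb7Cre males the 6 principal cell markers summed to 2694 to 3439 CPM in controls, 1005 to 1254 after ischemia and 1110 to 1213 after volume depletion, with 3 and 4 of the 6 called lower. The 7 intercalated cell markers there summed to 804 to 1193, 815 to 851 and 526.1 to 1017 CPM, with 2 and 4 called lower. The 6 fat markers summed to 46 to 125 CPM in controls, 12.3 to 26.9 after ischemia and 27.4 to 59.6 after volume depletion, with 5 called lower after each treatment. Both thick ascending limb markers were called lower after volume depletion (1329 to 2321 against 762 to 850 CPM) and neither after ischemia. In a pulldown of bulk tissue, fewer cells of a type and less RNA per cell cannot be told apart. In Atp6v1b1Cre males the 7 intercalated cell markers summed to 1011 to 1344 CPM in controls, 813 to 2015 after ischemia and 610 to 970 after volume depletion, with 3 of 7 called lower in the last, as were 3 of 6 fat markers. After ischemia there the 6 proximal tubule markers summed to 823 to 1151 CPM, against 1770 to 3568 in controls, with 2 called lower. Of the 2 thick ascending limb markers 1 was called higher (1825 to 3160 against 970 to 1980 CPM). Foxi1 was at 123, 155, 37 and 48.3 CPM in vAKI replicates 1, 2, 6 and 7, so the 2 libraries highest in Cish were lowest in Foxi1. The 18 leukocyte markers tested summed to 123 to 188 CPM in Atp6v1b1Cre control males and 80.2 to 128 after volume depletion (0 called higher and 3 lower), and to 61.5 to 83.9 and 50.8 to 60.5 in Hoxb7Cre (1 higher and 2 lower). The 6 stromal markers summed to 46 to 97.3 CPM in Hoxb7Cre controls and 114 to 274 after ischemia, with 4 called higher, and to 112 to 149 after volume depletion, with 1 called higher. No marker of these lists was at 0 in a male group. The part of these shifts in the SOCS results was not tested.

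In females, volume depletion again raised Cish, Socs2 and Socs3 in Atp6v1b1Cre, while no member was called in Hoxb7Cre. In Atp6v1b1Cre females all 8 members separated from the controls, 7 higher and Socs5 lower, where 31.2% of all genes did not overlap. Of these, 6 were DEGs at a background of 11.8%, and all 8 passed, where 26.4% of genes did. Cish rose from 60.9, 25.8, 27.2 and 28.7 CPM to 419, 556 and 907 (log2FC 4.14 ± 0.65, 17.7-fold, adjusted p = 5.85e-05). Socs2 rose from 58.2, 17.6, 50 and 93.8 CPM to 368, 461 and 783 (3.30 ± 0.71, adjusted p = 8.60e-04), and Socs3 from 5.11, 2.34, 4.81 and 2.25 CPM to 72.4, 49.2 and 76.6 (4.19 ± 0.86, adjusted p = 5.56e-04). The lowest depleted female lay above the highest control for each of these 3 genes. Socs1 rose from 0.511, 0.11, 0.907 and 0.383 CPM to 3.3, 1.05 and 2.33 (2.23 ± 0.67, adjusted p = 0.0129), a call lost without vAKI replicate 3 (1.81, adjusted p = 0.0883) or control replicate 8 (1.88, 0.0542). Socs4 rose from 34.8, 50.9, 26.2 and 39.9 CPM to 91.5, 86.2 and 82.7 (1.20 ± 0.18, adjusted p = 3.83e-05). Socs5 went the other way, from 73, 72.1, 74.9 and 72 CPM to 31.8, 33.4 and 27 (-1.24 ± 0.16, adjusted p = 5.61e-06), the one member called lower by volume depletion. Socs6 (0.63) and Socs7 (0.46) passed, both with an adjusted p of 0.00575. The female response minus the male response called no gene at all in Atp6v1b1Cre, 0 of 21175 after volume depletion and 0 of 21175 after ischemia by edgeR (background 0% in both), with 1756 and 676 genes at an unadjusted p under 0.05. Among the members 2 and 0 had such a p and DESeq2 called 0 and 0. For Socs5 that difference was -0.92 (adjusted p = 0.169).

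Among the 3 depleted Atp6v1b1Cre females, replicate 5 stood apart in markers of other cells. Endothelial, stromal and podocyte markers summed to 30, 28.6 and 34.1 CPM there, against 154, 149.5 and 167.5 in replicate 3, 189, 171 and 186 in replicate 4 and 120 to 227 in the controls over the 3 lists. Replicate 5 was also the highest of the group in Cish and Socs2. Without it the log2FC was 3.79 for Cish and 2.93 for Socs2, both DEGs, while Socs6 no longer passed (0.42, adjusted p = 0.0948). In the whole group, 2 of 7 intercalated, 3 of 18 leukocyte and 2 of 6 fat markers were called lower, with intercalated sums of 796 to 1077 CPM against 1238 to 1597 in controls. So were 1 principal cell, 1 endothelial and 1 stromal marker, while 1 leukocyte marker was called higher. The part of these markers in the SOCS values was not tested.

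In Hoxb7Cre females volume depletion called 0 of 8 members by edgeR and 0 by DESeq2, where 0.194% of genes were DEGs. No member separated from the controls (3.51% of all genes did), and 3 had an unadjusted p under 0.05. Cish was at 26, 159, 61.8 and 29.4 CPM in control replicates 1, 6, 9 and 10 and at 35.9, 87.1, 102.2 and 754 CPM in vAKI replicates 1, 2, 3 and 5. Control replicate 6 and vAKI replicate 5 stood far above the rest. The log2FC was 1.82 ± 0.58 (adjusted p = 0.186), 0.11 without vAKI replicate 5, and 3.14 (adjusted p = 0.1) without control replicates 6 and 9. Socs3 was at 1.03, 17.9, 9.92 and 7.48 CPM in controls and 5.08, 18.3, 7.11 and 115 in vAKI, with a log2FC of 1.98 ± 0.75 (adjusted p = 0.291) and 0.15 without vAKI replicate 5. Foxi1 was at 51.1 CPM in that library and at 90.2 to 102.6 CPM in the other depleted Hoxb7Cre females. Female minus male, the response to volume depletion in Hoxb7Cre called no member by edgeR, where 10.8% of genes were DEGs, although 1 had an unadjusted p under 0.05 and DESeq2 called 1. For Socs1 it was -2.50 (adjusted p = 0.0568). Without vAKI replicate 5 that difference was called for Socs3 (-4.06, adjusted p = 0.00284) and Socs1 (-3.16, adjusted p = 0.0102). Socs1 was also called without control Hoxb7Cre replicate 1 (-2.91, 0.00865) or 4 (-3.49, 0.0157) or control Atp6v1b1Cre replicate 8 (-2.50, 0.0497).

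After ischemia, Hoxb7Cre females showed 2 members called lower, Socs1 and Socs2, where 5.7% of genes were DEGs and 4.18% were lower. Socs2 was at 10.2, 317, 225 and 48.8 CPM in controls and at 35.7, 39.5 and 18.0 in iAKI (log2FC -2.30 ± 0.74, adjusted p = 0.0344). Socs1 was at 0.0411, 2.39, 1.93 and 1.16 CPM in controls and at 0.176, 0.19 and 0.324 in iAKI (-2.56 ± 0.80, adjusted p = 0.0308). For both genes control replicate 1 lay below the iAKI libraries and replicates 6 and 9 lay highest. Replicate 1 is the one control from the run of the iAKI females, too few for a value within that run. Without control replicates 6 and 9 the log2FC was 0.05 (adjusted p = 1) for Socs2 and -1.37 (adjusted p = 0.481) for Socs1. Leaving out any 1 of iAKI replicates 1, 2 and 3 or control replicates 6 and 9 also ended both calls, with log2FC from -2.50 to -1.63 for Socs2 and from -2.91 to -2.15 for Socs1. Without control replicate 1, Socs3 became a DEG (-2.48, adjusted p = 0.0427). The female minus male difference called Socs2 (-3.36 ± 0.98, adjusted p = 0.026) and Socs3 (-4.29 ± 1.22, adjusted p = 0.0227), where 6.98% of genes were DEGs. Without the same 2 controls these were -1.01 (adjusted p = 0.604) and -3.20 (adjusted p = 0.192). Leaving out iAKI replicate 3 or 5 or control replicate 3 or 6 ended both calls, with adjusted p from 0.0503 to 0.114, and control replicate 9 that of Socs2 (0.0604). Without control replicate 1, Socs1 was called (-2.75, adjusted p = 0.0441). In Atp6v1b1Cre females ischemia called 0 of 8 by both edgeR and DESeq2, where 2.59% of genes were DEGs. There 1 member had an unadjusted p under 0.05, Socs7 (-0.37, adjusted p = 0.0517), with 94.1, 83.8 and 110 CPM against 134, 124, 115 and 115 in controls.

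Apart from injury, Socs2 differed by sex in total kidney RNA. It ran from 5.69 to 14.5 CPM (median 9.33) in 11 males and from 14.4 to 163 CPM (median 31.2) in 10 females, with the ranges touching at their ends. The female to male log2FC was 2.46 ± 0.39 (5.49-fold, adjusted p = 2.89e-05). Replicates 12 and 17 were the 2 highest females, at 151 and 163 CPM, and without them the log2FC was 1.79 ± 0.21 (adjusted p = 9.09e-07). Socs2 was the only DEG among the 8 members, where 5.21% of genes were. Socs7 passed as lower in females, at 72.6 ± 5.7 CPM (SD, n = 10) against 89.2 ± 7.05 (n = 11) in males, with a log2FC of -0.26 (adjusted p = 6.82e-04). Thus 2 of 8 members passed where 29.5% of genes did. The control pulldowns may come from the same mice as total RNA, and are then no second sample of animals. Control pulldowns of Hoxb7Cre gave a log2FC of 4.14 ± 0.72 for Socs2 (17.6-fold, adjusted p = 3.68e-04), 1 of 8 members at a background of 2.01%, and 1.78 (adjusted p = 0.484) without replicates 6 and 9. Without control replicate 1, Socs1 (2.56, adjusted p = 0.00525) and Socs3 (2.39, adjusted p = 0.0413) were called there too, and Socs1 also without control replicate 4 (3.15, 0.0225) or vAKI Hoxb7Cre replicate 5 (2.16, 0.0433). In Atp6v1b1Cre controls it was 2.00 ± 0.66 (adjusted p = 0.163). There edgeR and DESeq2 called 0 members, at a background of 1.19%, and 3 had an unadjusted p under 0.05.

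The SOCS genes sit inside a pathway, and its other parts moved unevenly in males. Among 20 cytokine ligands tested, 5 were called higher and 0 lower after ischemia in Hoxb7Cre, where 2.3% of all genes were DEGs, and 6 higher and 2 lower after volume depletion there, where 16.4% were. In Atp6v1b1Cre, 2 and 1 were called higher and none lower, beside 2.82% and 5.15% of all genes. The same 4 shares hold for the other lists below. Lif, an IL-6 family cytokine, was at 0.436 to 0.885 CPM in Hoxb7Cre controls, 2.47 to 11.4 after ischemia (log2FC 2.91 ± 0.65, adjusted p = 0.00998) and 5.25 to 8.02 after volume depletion (3.32 ± 0.67, adjusted p = 4.98e-04). Il6 itself was at 0 to 0.0469 CPM in these controls, at the limit of detection, and at 1.01 to 1.27 CPM after volume depletion (adjusted p = 4.57e-05). Both are ligands whose receptors Socs3 inhibits. In Atp6v1b1Cre, where Socs3 was called too, the 1 ligand called after volume depletion was Il10. Lif ran there from 0.848 to 2.14 CPM in controls and from 0.493 to 4.03 after volume depletion. Il6 ran from 0 to 0.168 and from 0.176 to 0.703 CPM. A link between these ligands and Socs3 was not tested. Of 28 receptors, 2 were called higher and 1 lower after ischemia in Hoxb7Cre, 7 and 1 after volume depletion, and 0 and 1, then 2 and 1, in Atp6v1b1Cre. Osmr, the oncostatin M receptor, rose in Hoxb7Cre by 1.65 ± 0.30 after ischemia (adjusted p = 0.00256) and 1.54 ± 0.31 after volume depletion (adjusted p = 5.49e-04). The growth hormone receptor Ghr, which Socs2 restrains, passed as lower after volume depletion in Atp6v1b1Cre (-0.55 ± 0.18, adjusted p = 0.0378).

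The kinases themselves were not called. No JAK among 4 was a DEG in any of the 4 comparisons, and Jak2 passed as lower after ischemia in Atp6v1b1Cre (-0.51 ± 0.12, adjusted p = 0.0116) and Tyk2 after volume depletion in Hoxb7Cre (-0.46 ± 0.15, adjusted p = 0.0165). Among the STAT genes, Stat4 was a DEG after volume depletion in Hoxb7Cre (1.79 ± 0.33, adjusted p = 2.29e-04). Stat3 passed in Hoxb7Cre after ischemia (0.50, adjusted p = 0.0364) and volume depletion (0.73, adjusted p = 6.52e-04). Stat5a and Stat5b passed as lower after ischemia in Atp6v1b1Cre (-0.81 and -0.77, adjusted p = 0.00631 and 0.00152), and after volume depletion there, where Cish and Socs2 rose, they did not pass (-0.28 and -0.24, adjusted p = 0.242 and 0.202). Among 14 other inhibitors of the pathway, 5 were called higher and 1 lower after volume depletion in Hoxb7Cre and none in the other 3 comparisons. Sh2b3, an adaptor that restrains JAK2, went from 39.6 to 60.2 CPM in controls up to 154 to 203 (1.83 ± 0.17, adjusted p = 1.12e-07), and Ptpn1, a JAK phosphatase, from 117 to 134 CPM up to 235 to 311 (1.13 ± 0.12, adjusted p = 5.36e-07).

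Target genes of the STATs were called in larger numbers. Of 24 STAT3 target genes, 15 were called higher and 2 lower after volume depletion in Hoxb7Cre (median log2FC 1.32) and 10 higher and 1 lower in Atp6v1b1Cre (median 1.32), beside a median of 0.00 over all genes and 9.61% and 3.45% of all genes called higher. After ischemia 6 and 7 were called higher and 0 lower, with medians of 0.56 and 0.04. In females ischemia called 3 higher and 8 lower in Hoxb7Cre (median -0.66, with 5.7% of all genes called), and none without control replicates 6 and 9 (median -0.29, 0.279% of all genes). The other female counts were 8 higher and 0 lower after ischemia in Atp6v1b1Cre, and 1 and 0, then 11 and 1, after volume depletion in Hoxb7Cre and Atp6v1b1Cre. Cebpd, a transcription factor gene, led after volume depletion in Hoxb7Cre, from 2.4 to 14.9 CPM in controls to 110 to 127 (4.18 ± 0.66, adjusted p = 3.98e-05), with Fos (3.71 ± 0.59, adjusted p = 4.65e-05). After volume depletion in Atp6v1b1Cre, Fos (2.91 ± 0.56, adjusted p = 0.00173), the fibrinogen gene Fgg (2.76 ± 0.64, adjusted p = 0.00623) and Cebpd (2.41 ± 0.59, adjusted p = 0.0089) had the highest log2FC of the list. After ischemia there, where Socs3 did not pass, it was Fgg (5.11 ± 0.70, adjusted p = 3.74e-04), Fgb, another fibrinogen gene (5.07 ± 0.91, adjusted p = 0.0021), and Lcn2, which encodes NGAL (4.41 ± 0.71, adjusted p = 0.00107). Of 11 growth hormone and STAT5 targets, 5 were called higher and 0 lower after volume depletion in each driver, with medians of 0.82 and 0.96, and 0 after ischemia in either. Igf1, the hormone that growth hormone induces, was among them in Atp6v1b1Cre (1.22 ± 0.26, adjusted p = 0.00294), and Cdkn1a, a cell cycle inhibitor, in both (2.90 ± 0.32 in Hoxb7Cre and 1.43 ± 0.29 in Atp6v1b1Cre, adjusted p = 7.88e-07 and 0.00257). Some genes stand in more than 1 of these lists. Bcl6, 1 of the 5 STAT5 targets called higher in Hoxb7Cre (1.89 ± 0.33, adjusted p = 1.10e-04), also stands among the other inhibitors. The list of STAT5 targets takes no account of whether STAT5 raises or lowers a gene, so a count called higher is no measure of STAT5 activity.

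**Figure D5:**
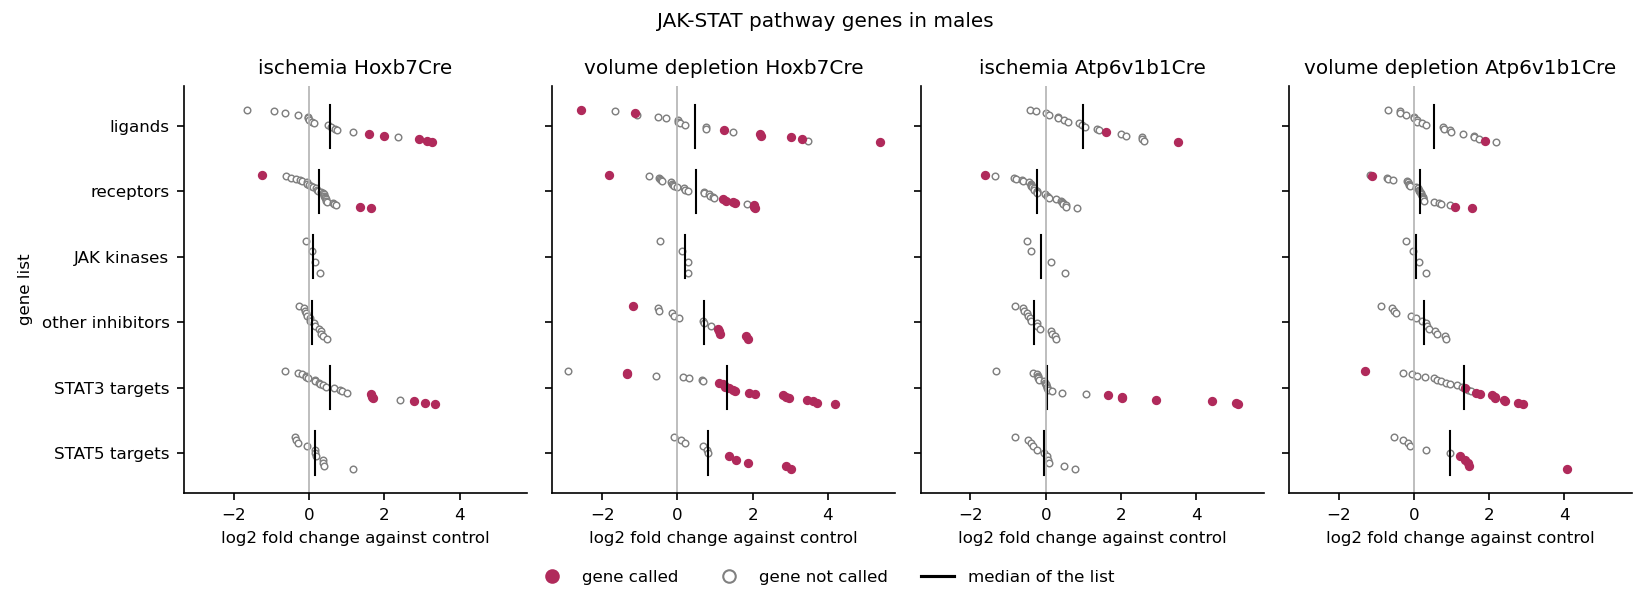
Log2 fold change in males (x axis) of the genes of 6 pathway lists (y axis), in 4 panels by driver and treatment. Each point is 1 gene, filled where it is a DEG, and black lines are medians. The STAT3 target list has a median of 1.32 after volume depletion in both drivers, while JAK kinases stay near 0.

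None of 9 Elongin-Cullin partners of the SOCS box found by symbol was a DEG in the 4 male comparisons, and 0, 1, 2 and 1 passed, all higher. The Elongin C and Elongin B genes Eloc and Elob are among these 9 under their older symbols Tceb1 and Tceb2. Tceb1 was 1 of the 2 that passed after ischemia in Atp6v1b1Cre (0.60 ± 0.17, adjusted p = 0.0292). Among 28 genes of other SOCS box families, 1 was called higher and 1 lower after ischemia in Hoxb7Cre, 5 and 2 after volume depletion there, 0 and 0 after ischemia in Atp6v1b1Cre and 1 and 0 after volume depletion. The 7 of 28 called after volume depletion in Hoxb7Cre stand beside 16.4% of all genes. Spsb1, which targets inducible nitric oxide synthase, was called higher in 3 of them (1.40 ± 0.34, 2.74 ± 0.37 and 1.01 ± 0.34, adjusted p = 0.0167, 6.56e-06 and 0.0456). Of 10 genes of insulin and IGF signaling, Irs2, a receptor substrate, stood out. It was at 49.4 to 107.3 CPM in Atp6v1b1Cre control males, 23.4 to 40.8 after ischemia (-1.56 ± 0.29, adjusted p = 0.00243) and 280 to 564 after volume depletion (2.28 ± 0.26, adjusted p = 1.70e-05). In Hoxb7Cre it rose from 59.4 to 97 CPM up to 345 to 492 after volume depletion (2.39 ± 0.28, adjusted p = 1.28e-06). Counts of that list were 0 and 0, 1 and 0, 0 and 1, and 2 and 0 called higher and lower, in the order of the SOCS box families above.

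By likeness across the 48 pulldowns, the members kept different company. The genes most like Socs1 were Jmjd6 (r = 0.93), Jun (0.92), Atf4 (0.92), Atf3 (0.91) and Nfkbia (0.91), and those most like Socs3 were Sbno2 (0.93), Pvr (0.93), Birc3, Nedd9 and Stx11 (each 0.92). Socs1 and Socs3 correlated with each other at 0.81. Socs4 was most like Ccnt1 (0.91), Socs5 most like Cpsf2 (0.88), Socs6 most like Ythdc1 (0.86) and Socs7 most like Ncoa3 and Klf3 (each 0.92). These are descriptions over libraries that share treatment and depth.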

How the data were processed

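Counts per gene were deposited by the authors, who trimmed reads with Trimmomatic 0.36, aligned them to mm10 with STAR 2.5.3a and counted them with HTSeq 0.6.1p2, per the submitters' processing notes. The counts are raw and not normalized, and the strand setting of the library kit is not given in the sources used here. HTSeq drops reads that align to more than 1 place, and overlapping genes are uncertain.

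Groups, sexes, ages and replicate numbers came from the labels, which do not say which libraries share a mouse. The paper's supplement gives 21 mice for its comparisons of control pulldowns with total RNA. Control pulldowns and total RNA also match in number by driver, sex and age. The 2 fractions may therefore come from the same mice, and the baseline fit did not pair them. The filter kept genes whose counts summed to 2 or more, 21175 of 24411, with edgeR 4.0.16 in R 4.3.3 (TMM, quasi-likelihood test, Benjamini-Hochberg over all genes tested). Injury in males was fitted on 22 libraries, sex on 43 pulldowns of 5.5 months, total RNA on 21 libraries with the driver as covariate, and baseline on 42 controls with sex as covariate. Where 1 library of the 43 was left out, the dispersion trend of the full fit was kept. DESeq2 1.42.0, other filters, scalings and sample sets were alternatives. The SE of a log2FC was taken as its size divided by the square root of the quasi-likelihood F statistic, which is unreliable where the log2FC is small. CPM were TMM-scaled over all libraries. Log2 CPM used a prior count of 2, and levels per kb used exon lengths of GENCODE on GRCm38, merged over all transcripts of a gene. Scripts were tested on simulated data, and intervals between replicates measure the spread between these samples only. The members and lists were chosen with earlier results of these data known. All 8 members are named in every comparison. Named with them are the 5 genes most like each by Pearson r, among those with a mean of at least 1 CPM, and up to 3 called genes of highest and 3 of lowest log2FC of each pathway list, of which a selection is printed. The receptor, JAK and STAT genes outside that rule (Ghr, Osmr, Stat3, Stat5a, Stat5b, Jak2, Tyk2), Igf1, Tceb1 and Tceb2 were named after their values were seen. Tceb1 and Tceb2 were matched through the synonyms of the RefSeq gene table. Some genes and 1 gene list are not reported here.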

Additional observations from a re-analysis of the deposited data

Results flagged for a closer look

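In the sets of 4 to 10 libraries screened, 14 values had 1 library far from the others of its group, where chance gives about 1 in 20. Among the injured mice, Socs3 was at 20.4 CPM in male iAKI Hoxb7Cre replicate 5 (others 6.23 to 8.33). Female vAKI Hoxb7Cre replicate 5 was high in 3 members, Cish at 754 CPM (others 35.9 to 102.2), Socs3 at 115 (5.08 to 18.3) and Socs7 at 191 (153 to 156).

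Among controls, Hoxb7Cre replicate 1 had Socs5 at 82.2 CPM (others 67.5 to 69.6), replicate 2 had Socs4 at 68.6 (44.9 to 48.8), and replicate 6 had Cish at 159 (22.1 to 61.8) and Socs3 at 17.9 (0.92 to 9.92). Atp6v1b1Cre replicate 11 had Socs3 at 9.81 CPM (2.39 to 3.31) and replicate 7 had Cish at 60.9 (25.8 to 28.7). In total RNA, replicate 3 had Cish at 101.4 CPM (7.81 to 23.1) and Socs4 at 22.7 (19.3 to 19.4), replicate 4 had Cish at 47.1 (9.72 to 11.4), and replicate 12 had Cish at 91.1 (19.3 to 52.4). Cish accounts for 6 of these 14.

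Responses that differed between groups by the test of the difference itself were, on the log2 scale, Cish (3.56) and Socs2 (2.86) between the drivers after volume depletion, Socs4 (-0.86) and Socs7 (-0.71) between the drivers after ischemia, and Socs2 (-3.36) and Socs3 (-4.29) between females and males after ischemia in Hoxb7Cre.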

How the results depend on the processing

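Over the values of single members under all alternatives, 1390 kept direction and side of the threshold, 58 lost a call, 21 gained one and 3 reversed, all in Hoxb7Cre. In a fit of females only, Socs3 after ischemia was -2.07 and Socs1 after volume depletion was -0.13, and without control replicates 6 and 9 Socs2 after ischemia in females was 0.05. Counts of members called moved by over 1.5 times as follows, and the cause was not tested except where the alternative itself sets it. Without a fold threshold they were 5 after volume depletion in Hoxb7Cre, 1 after ischemia in Atp6v1b1Cre, 2 in the driver difference after ischemia, 2 between the sexes in total RNA, and 4 in each baseline comparison. DESeq2 called 1 in the female minus male response to volume depletion in Hoxb7Cre and 2 between the sexes in Hoxb7Cre controls, and filterByExpr called 1 in the first. With both sexes in the fit, 0 were called after ischemia in Hoxb7Cre, 4 between ischemia and volume depletion there and 1 in the driver difference after volume depletion. Females only gave 0 in Hoxb7Cre for either treatment, 6 after volume depletion in Atp6v1b1Cre and 0 in that driver difference (Cish 2.31, adjusted p = 0.185). The run covariate gave 2 after ischemia in Hoxb7Cre. Baseline Hoxb7Cre gave 2 in males only and 2 in females only. Without control replicates 6 and 9, 0 were called in the female response to ischemia in Hoxb7Cre, in its difference from males and between the sexes in Hoxb7Cre controls.

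With 1 library left out, called members numbered 0 to 2 (ischemia) and 2 to 3 (volume depletion) in Hoxb7Cre, 0 to 0 and 3 to 4 in Atp6v1b1Cre, 2 to 2 and 2 to 5 between the treatments, 0 to 1 and 1 to 2 in the driver differences, 0 to 3 in the female response to ischemia in Hoxb7Cre and its difference from males, 0 to 2 in that difference after volume depletion, 5 to 6 in females after volume depletion in Atp6v1b1Cre and 1 to 3 between the sexes in Hoxb7Cre controls. Libraries of the same replicate number were not more alike on average (mean r -0.103 over 6 pairs in Hoxb7Cre and -0.116 over 2 in Atp6v1b1Cre, against 0.018 and 0.00591 in other pairs). The 2 pairs, at 0.214 and -0.446, are too few to show a lack of pairing. Atp6v1b1Cre control replicate 6 had r of 0.488 and 0.343 with vAKI replicates 1 and 2 of its run. With vAKI replicates 6 and 7 of the second run it had -0.446 and -0.467. For control replicate 9 these were 0.133, 0.198, -0.184 and -0.162. Whether the runs are batches was not tested. With a replicate block, 0 were called after ischemia in Hoxb7Cre (Socs3 1.54, adjusted p = 0.0544) and 0 in the driver difference after volume depletion (Cish 4.01, adjusted p = 0.0591, and Socs2 4.43, adjusted p = 0.0631), Socs2 after volume depletion in Hoxb7Cre was 0.71 (adjusted p = 0.388) and Socs4 between the treatments in Atp6v1b1Cre was -0.92. Fits within runs, of females only for the driver difference and without the 4 libraries that stood apart were chosen after seeing the data. Depth limits Socs1 most, whose controls hold as few as 1 count.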
